A study of Mus musculus with 3 samples.

Results

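The cytosolic ribosomal protein genes were taken as every gene symbol of the deposited gene list that starts with Rpl or Rps and goes on with a number, with a closing letter a, l or x or a last digit allowed. This rule gave 79 of 32285 genes, 48 of the large and 31 of the small ribosomal subunit, and all 79 had at least 1 unique molecular identifier (UMI, a tag that counts 1 captured mRNA molecule) in the cells kept. Their counts were read as a share of all UMIs, in thymocyte stages and in the other cells of cultured mouse thymus. The cells came from 2 pools of wild type thymus tissue on culture day 13, both cultured in medium with the growth factor FGF7. In the ORFTOC pool (organoid reaggregate fetal thymic organ culture), thymic epithelial cells (TECs) that had been grown as organoids were reaggregated with fetal thymus cells depleted of epithelium and with mouse embryonic fibroblasts. The FTOC pool (fetal thymic organ culture) held thymic lobes kept whole. The organoids had been grown from TECs of a later fetal stage than these lobes and the depleted cells. Each pool was a mix of 2 cultures that carried a single hashtag antibody, and both pools ran in 1 droplet lane, so each pool was 1 sample and no test between pools could be made. All intervals are 95% intervals that cover counting error only and say nothing of the spread between cultures.

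A ribosome is built from a few ribosomal RNAs and a large set of proteins, nearly all of them needed in equal number. Growing cells therefore make the mRNAs of these proteins together and in large amounts. Many of these mRNAs begin with a run of pyrimidines (C and T), the terminal oligopyrimidine tract, through which the mTOR kinase and the RNA-binding protein Larp1 set how strongly they are translated, and the transcription factor Myc raises the making of ribosomes. In the thymus, thymocytes divide rapidly after they have rearranged a T cell receptor beta chain, then become small resting double-positive cells that express both Cd4 and Cd8, and those that pass selection grow again into single-positive cells. A handful of genes of the family are paralogues, such as Rpl22l1 beside Rpl22 and Rps27l beside Rps27, whose products resemble those of their partners.

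The sequence around the start of transcription is shown for members at the upper and lower ends of the comparisons of thymocyte stages, for Rpl36a, the X-linked member with the largest difference, for Rpl35, whose part of the ribosomal protein mRNA varied least, and for 2 paralogue pairs. Each line gives 20 bases before and 10 bases after the annotated start, read in the direction of the gene, from RefSeq on GRCm38.p6. Capitals mark an unbroken run of 8 or more C or T.
Rps2 (chr17:24720043-24720072, plus strand): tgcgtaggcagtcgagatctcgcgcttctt
Rpl14 (chr9:120571497-120571526, plus strand): cggcagggcgggCCCTCTCTCTTCTCgctg
Rps18 (chr17:33955656-33955685, minus strand): acttatacgtcacttccgCTCTCTCTTCCa
Rps19 (chr7:24884572-24884601, plus strand): agcactccgaaatctcgcgagactcgacgc
Rpl7l1 (chr17:46782647-46782676, minus strand): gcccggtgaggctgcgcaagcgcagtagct
Rps27l (chr9:66946066-66946095, plus strand): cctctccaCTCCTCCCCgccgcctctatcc
Rpl36a (chrX:134585634-134585663, plus strand): aggaagtgcacccaggcaccgcctataaac
Rps27 (chr3:90213639-90213668, minus strand): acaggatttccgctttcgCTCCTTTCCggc
Rpl37a (chr1:72711240-72711269, plus strand): gtcacttccgctcgccggtctaaaaccgcg
Rpl35 (chr2:39005122-39005151, minus strand): gaagtcggccccgCCCTTTCCTCTTTCTCT
Rpl22 (chr4:152325706-152325735, plus strand): ccgacttcgccctgggaaaagcaatagctg
Rpl22l1 (chr3:28805488-28805517, plus strand): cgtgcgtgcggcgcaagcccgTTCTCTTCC
Rpl39 (chrX:37085213-37085242, minus strand): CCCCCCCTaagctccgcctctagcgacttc
Rpl39l (chr16:10170208-10170237, plus strand): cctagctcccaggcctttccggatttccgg

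Of the 79 members, 60 had a start region in the RefSeq table. A run of at least 8 C or T in these 30 bases was found in 27 of the 60 (45%), against 14.5% of the 20207 other genes with a start region. In the wider window from 250 bases before to 50 after the start, the letters CCGGAAG stood on either strand in 40% of the members and in 11.9% of the other genes. In the same window, CTCTTT on the strand of the gene was found in 38.3% of the members and 13.4% of the others. The letters AAGATGG, on either strand, were found in 16.7% and 7.18%. These letters were chosen after the sequences had been seen, and a match is a description of the sequence, not a binding site.

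The lane gave 705161 barcodes and 103984163 UMIs, and 8392 cells were kept after filtering for 600 genes, for 0.4 to 10% mitochondrial UMIs and for doublets. The ORFTOC pool held 4252 cells with a median of 8052 UMIs, and the FTOC pool 4140 cells with a median of 4940. Single cells had 771 to 62025 UMIs. Clusters were formed without the members, named from marker genes, and stand here for cells like the named type. Of 18 populations with at least 50 cells, 14 could be named, and these held 7113 cells. None of the 4 erythroid markers had a UMI in double-positive, cycling or mature single-positive thymocytes. Summed epithelial markers reached 178 counts per 1000000 UMIs (CPM) in double-positive thymocytes of ORFTOC and 156 CPM in those of FTOC, and between 28.2 and 42.2 CPM in cycling and mature single-positive thymocytes. The part of such markers in the results was not tested.

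Ribosomal protein mRNA made up 14991295 of 71907548 UMIs in the cells, or 20.8%. The share was 20.4% in ORFTOC and 21.5% in FTOC. In single cells it ran from 0.468% to 55.4%. It lay under 5% in 146 cells and over 30% in 918. In barcodes with fewer than 100 UMIs, which hold free RNA of the suspension, the share was 10.7%.

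Among the members, Rpl41, which codes for the smallest protein of the ribosome, had the most UMIs, 463462 over all cells or 6445 CPM. Rpl13 (368114 UMIs), Rps20 (344657) and Rpl32 (306582) were also among the 5 highest. Each molecule is counted once at its start whatever its length, so these levels were not scaled to length. At the low end stood paralogues: Rpl10l had 1 UMI, Rpl3l 12, Rpl39l 185, Rpl7l1 4671 and Rps27l 28899. Without these 5 and Rpl22l1 (50995 UMIs), the remaining 73 members spanned 777 to 6445 CPM. At least 20 CPM in a named population was reached by 77 members. For genes with at least 20 CPM in 1 named population and a UMI in every one, the median log2 ratio between the highest and the lowest population was 1.41 over 76 members and 2.19 over 8314 genes.

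**Figure D1:**
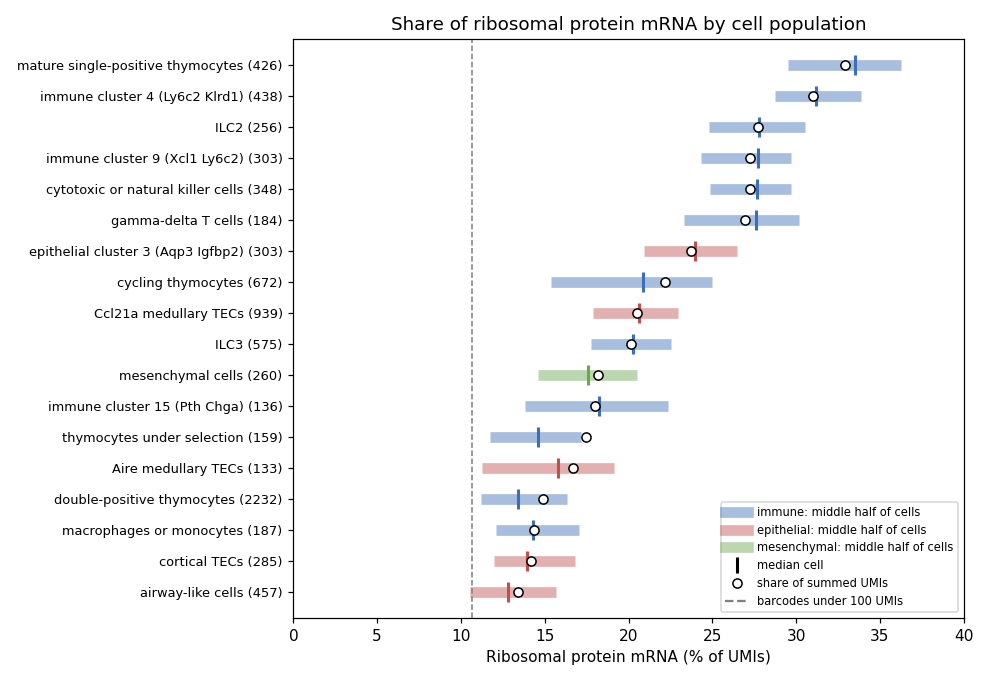
Share of UMIs from ribosomal protein genes in each population, in percent, with the number of cells in brackets. Bars span the lower to the upper quartile of single cells, the upright tick is the median cell, and the point is the share of summed UMIs; the dashed line is free RNA (10.7%). Mature single-positive thymocytes lay at 32.9% and double-positive thymocytes at 14.9%.

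Mature single-positive thymocytes, named from egress and homing genes such as S1pr1, Klf2 and Ccr7, had the highest share, 32.9% of UMIs (32.8 to 33.0%, 426 cells). An unnamed immune cluster led by Ly6c2 and Klrd1 came next, at 31.0%. The share was 27.7% in group 2 innate lymphoid cells (ILC2), 27.3% in an unnamed immune cluster led by Xcl1 and Ly6c2, 27.2% in cytotoxic or natural killer cells and 27.0% in gamma-delta T cells. Group 3 innate lymphoid cells (ILC3) stood lower, at 20.1%. Cycling thymocytes lay at 22.2% (22.1 to 22.2%, 672 cells) and thymocytes under selection, marked by Itm2a and Cd69, at 17.5% (159 cells). Double-positive thymocytes had 14.9% (14.8 to 14.9%, 2232 cells), and the quartiles of their cells lay at 11.2% and 16.3%. Macrophages or monocytes (14.4%), cortical TECs (14.2%) and airway-like epithelial cells (13.4%) stood at the bottom of the order. Between these, medullary TECs that express the chemokine gene Ccl21a had 20.5%, mesenchymal cells 18.2% and medullary TECs that express the autoimmune regulator Aire 16.7%. The neighbours ILC2, cytotoxic or natural killer and gamma-delta T cells differed by less than the pools of ILC2 did from each other (27.6% in ORFTOC, 29.0% in FTOC). The neighbours macrophages or monocytes and cortical TECs also overlapped between pools, with 13.2 and 14.6% against 14.0 and 15.9%.

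Both subunits followed the same order in broad terms. UMIs of the large subunit outnumbered those of the small subunit 1.17 times in mature single-positive thymocytes and 1.43 times in cortical TECs, the lowest and highest ratios among the 18 populations. Of the 73 members without the 6 low paralogues, 61 had their highest CPM in mature single-positive thymocytes, 6 in cytotoxic or natural killer cells, 4 in ILC2 and 2 in cycling thymocytes. The lowest CPM fell in double-positive thymocytes for 22, in airway-like cells for 21, in cortical TECs for 18, in macrophages or monocytes for 10 and in Aire medullary TECs for 2. The same count was not made over all genes. These members make up the summed share, so their counts are not a result apart from its order.

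Double-positive thymocytes fell into 5 clusters that differed in share. The largest (1092 cells) had 12.8%, the next (635 cells) 15.9% and a cluster led by Ly6d (367 cells) 18.2%. A cluster of 80 cells led by the interferon response genes Ifit1, Rsad2 and Usp18 stood at 17.9%. The last, of 58 cells, had only 2.78% (2.67 to 2.90%), below the share of free RNA, and 55 of its cells were under 5%. Its cells had a median of 1147 UMIs and 5.75% mitochondrial UMIs, and the nuclear RNA Malat1 made up 2.38% of its UMIs, against 0.52 to 0.82% in the other 4 clusters. The part of these quality measures in its low share was not tested. Without this cluster, double-positive thymocytes had 15.1%.

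**Figure D2:**
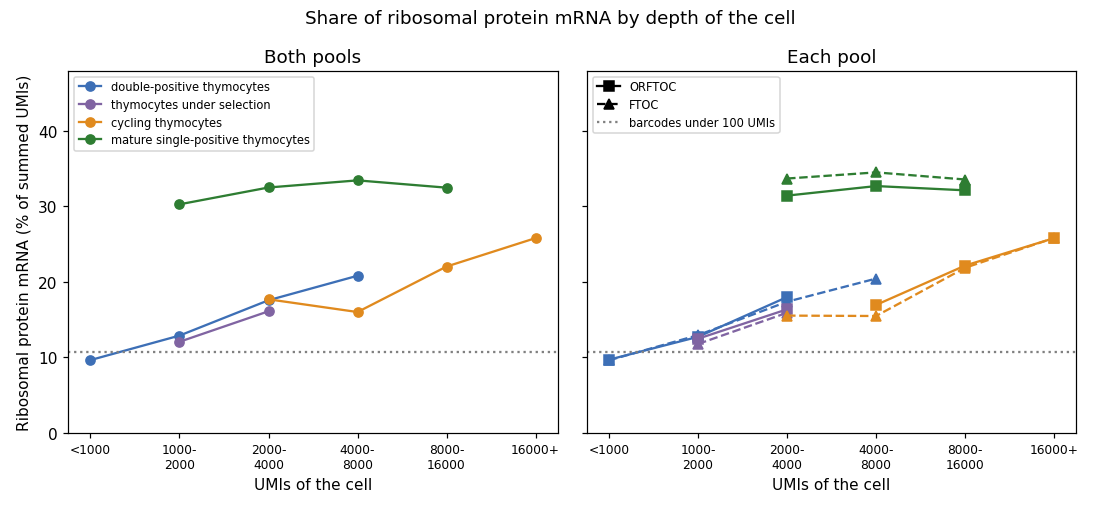
Share of summed UMIs from ribosomal protein genes, in percent, by the number of UMIs of the cell, for 4 thymocyte classes, in both pools (left) and in each pool (right, squares ORFTOC, triangles FTOC). The dotted line is free RNA. In cells of 2000 to 4000 UMIs, cycling and double-positive thymocytes lie at 17.7% and 17.6%, and mature single-positive thymocytes at 32.5%. From 4000 to 8000 UMIs, cycling thymocytes lie at 16.0% and double-positive thymocytes at 20.8%.

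The thymocyte classes differed in depth, with medians of 1639 UMIs in double-positive, 2153 in cells under selection, 5924 in mature single-positive and 8746 in cycling thymocytes. Within double-positive thymocytes the share was higher in deeper cells. It was 9.62% in cells under 1000 UMIs (108 cells), 12.9% from 1000 to 2000 (1512 cells), 17.6% from 2000 to 4000 (573 cells) and 20.8% from 4000 to 8000 (38 cells). Across single cells, the share correlated with log2 UMIs at r = 0.60 in 2232 double-positive and r = 0.57 in 672 cycling thymocytes, but at r = 0.078 in 426 mature single-positive thymocytes. These cells share a library, and the UMIs counted in the share are also part of the depth. At the same depth of 2000 to 4000 UMIs, cycling thymocytes (17.7%, 17.5 to 17.9%, 42 cells) and double-positive thymocytes (17.6%, 17.5 to 17.6%) differed by less than their intervals. In FTOC alone these were 15.5% (23 cells) and 17.4%. Thymocytes under selection, above double-positive thymocytes over all depths, lay below them at matched depth. From 1000 to 2000 UMIs they had 12.0% (59 cells), against 12.9% in double-positive thymocytes. From 2000 to 4000 UMIs they had 16.1% (76 cells), against 17.6%. Mature single-positive thymocytes of that depth had 32.5% (58 cells). Shallower ones, from 1000 to 2000 UMIs, had 30.3% (21 cells), and deeper ones 33.5% from 4000 to 8000 and 32.5% from 8000 to 16000. The depth of a cell reflects both its RNA content and its capture, which cannot be told apart here.

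**Figure D3:**
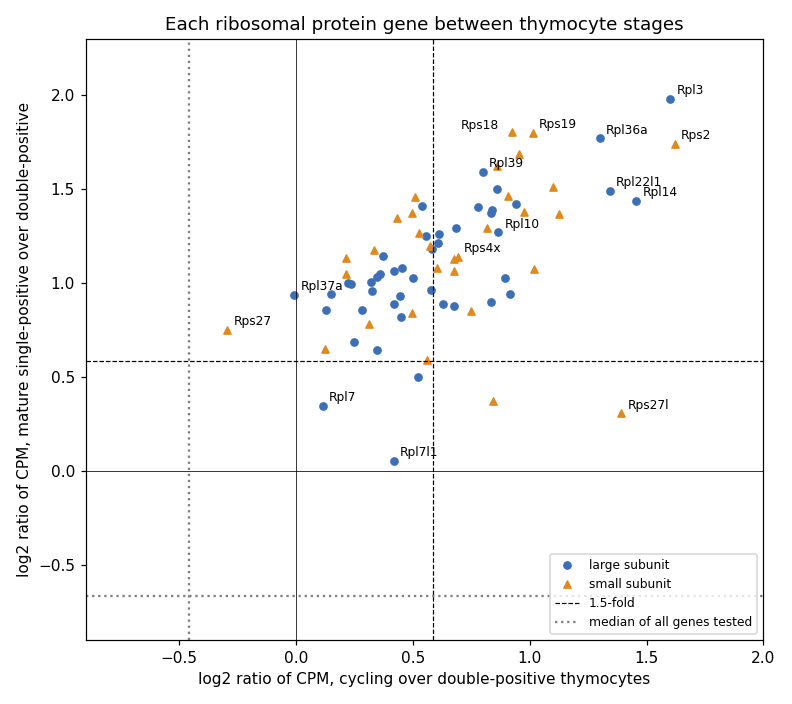
Each point is 1 of 76 ribosomal protein genes with at least 20 CPM in the higher class of both comparisons. The horizontal axis gives the log2 ratio of CPM of cycling over double-positive thymocytes, the vertical axis that of mature single-positive over double-positive thymocytes. Dashed lines mark 1.5-fold and dotted lines the median of all genes tested. Members spread from -0.29 to 1.62 across and from 0.055 to 1.98 upwards.

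Cycling thymocytes had higher levels than double-positive thymocytes for most members, by an uneven amount. A member was counted as higher or lower past a 1.5-fold ratio of CPM, with at least 20 CPM in the higher class. Of 76 members over this limit, 37 were higher and 0 lower, against a background of 17.9% of 6968 genes higher and 44.2% lower. Their median log2 ratio was 0.58, against -0.46 for all genes. The small subunit gave 18 of 31 and the large subunit 19 of 45. In ORFTOC 44 members were higher (18.4% of all genes higher, 46.6% lower) and in FTOC 28 (16.6% higher, 40.8% lower), and 0 members were lower in either pool. When the classes were scaled by trimmed mean of M-values (TMM) in place of total UMIs, the median of all genes moved from -0.46 to 0.20, the median of the members to 1.16, and 74 members were higher, as were 35.8% of all genes. This scaling adds 0.58 to the log2 ratio of every member over double-positive thymocytes here, and 0.60 where mature single-positive thymocytes are compared. In cells of 2000 to 4000 UMIs, 2 members were higher and 1 was lower, against 22.1% of all genes higher and 27.6% lower, with a median of 0.023 over members and -0.068 over all genes. These values sum both pools, as ORFTOC had fewer than 20 cycling cells of that depth, and were not read in each pool.

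Rps2, a protein of the small subunit near the mRNA entry, differed most between cycling and double-positive thymocytes. It had 5167 CPM in cycling and 1479 CPM in double-positive thymocytes of ORFTOC, and 3561 and 1485 CPM in FTOC. Its level in double-positive thymocytes thus lay close between the pools, while that of cycling thymocytes was higher in ORFTOC. Over both pools the log2 ratio was 1.62 (1.58 to 1.66). Rpl3, which lies near the centre where peptide bonds form, had 2674 against 775 CPM in ORFTOC and 2163 against 835 CPM in FTOC, with a log2 ratio over both of 1.60 (1.55 to 1.66). Rpl14 followed at 1.46 (2053 against 748 CPM). At the other end, Rps27, a zinc finger protein of the small subunit, had 2377 CPM in cycling and 2971 CPM in double-positive thymocytes of ORFTOC, and 2313 and 2852 CPM in FTOC. Its log2 ratio was -0.29, above the median of all genes, and it turned to 0.29 with TMM scaling. Rpl37a (3205 against 3223 CPM, log2 ratio -0.0080) was level on this scale, and Rpl7 stood at 0.11. Rpl14 and Rps27 both carry a run of C or T within the printed bases, and Rps2 and Rpl37a do not. The printed bases of Rps2 end in C and T, so a run that goes on past them was not read. A run was counted anywhere in the printed bases, also before the annotated start. Over the members with a start region, the median log2 ratio was 0.61 with such a run (27 members) and 0.58 without (30 members). In cells of 2000 to 4000 UMIs, the 3 members past 1.5-fold were Rpl3 (log2 ratio 0.66) and Rps27l (0.93), both higher in cycling thymocytes, and Rps27 (-0.69), lower.

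Mature single-positive over double-positive thymocytes gave a larger difference. Of 76 members 71 were higher and 0 lower, with 9.37% of 6714 genes higher and 54.5% lower in the background. The median log2 ratio was 1.08 over the members and -0.67 over all genes. ORFTOC gave 69 higher members (10.1% of all genes higher, 53.8% lower) with a median of 1.06, and FTOC 71 (9.68% higher, 54.5% lower) with a median of 1.15. The large subunit had 42 of 45 members higher and the small subunit 29 of 31. Unlike the comparison with cycling thymocytes, 60 of 76 members were also higher when the cells of both classes were limited to 2000 to 4000 UMIs, 56 in ORFTOC and 63 in FTOC, with a median of 0.83. In these cells 14.7% of all genes were higher, 21.7% in ORFTOC and 20.1% in FTOC. Under TMM scaling all 76 were higher, with a median of 1.68, as were 24.2% of all genes.

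Rpl3 led this comparison too, with 3213 CPM in mature single-positive and 775 CPM in double-positive thymocytes of ORFTOC, and 3256 and 835 CPM in FTOC. Both mature values stood well above both double-positive values, and the log2 ratio over both pools was 1.98 (1.92 to 2.04). Rps18, a protein of the head of the small subunit, was at 2894 against 881 CPM in ORFTOC and at 3145 against 845 CPM in FTOC (log2 ratio 1.80). Rps19, whose gene is mutated in some patients with Diamond-Blackfan anaemia, was at 5517 against 1715 CPM in ORFTOC and 6065 against 1611 CPM in FTOC (log2 ratio 1.80). The smallest ratios belonged to the paralogues Rpl7l1 (51.9 against 50.01 CPM, log2 ratio 0.055) and Rps27l (234 against 189 CPM, 0.31) and to Rpl7 (2209 against 1736 CPM, 0.35). Rps27 and Rpl37a, lowest in cycling thymocytes, were at 0.75 and 0.94 here. Members with a run of C or T anywhere in the 30 bases around the start had a median of 1.05 and those without 1.18.

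The 4 members on the X chromosome were higher in both comparisons, as most members were. Rpl36a had log2 ratios of 1.30 in cycling and 1.77 in mature single-positive over double-positive thymocytes. Rpl39 was at 0.80 and 1.59, Rpl10, which joins the large subunit last, at 0.87 and 1.27, and Rps4x at 0.69 and 1.14. Over both pools all 4 were past 1.5-fold in both comparisons, as were 37 and 71 of 76 members and 17.9 and 9.37% of all genes. In FTOC alone, 3 of the 4 were past it in cycling over double-positive thymocytes, with 16.6% of all genes.

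Other genes of the ribosome and of translation were read from fixed lists, scaled to total UMIs. Over all genes, 17.9% were higher and 44.2% lower in cycling over double-positive thymocytes, with a median log2 ratio of -0.46. In mature single-positive over double-positive thymocytes 9.37% were higher and 54.5% lower, with a median of -0.67. Values between 0 and -0.58 in cycling and between 0 and -0.60 in mature single-positive over double-positive thymocytes would turn above 0 with TMM scaling. The 8 ribosomal protein genes whose symbols do not follow the pattern gave 4 higher and 0 lower in cycling over double-positive thymocytes, with a median log2 ratio of 0.62. These included Rpsa (1.37), a small subunit protein also known as a laminin receptor, and the stalk proteins Rplp2 (1.00), Rplp0 (0.80) and Rplp1 (0.70). Fau, which is made as a fusion with a ubiquitin-like protein, was at -0.13. In mature single-positive over double-positive thymocytes 7 of the 8 were higher, with a median of 1.06. Of 15 translation factors, 8 and 6 were higher in the 2 comparisons and 0 lower, with medians of 0.61 and 0.38. The elongation factor gene Eef1b2 was at 1.25 and 1.68. Eif5a, which helps stalled ribosomes along, was at 1.94 in cycling thymocytes, and Eif3f, a subunit of an initiation factor, at -0.30.

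Ribosome assembly factors, which act in the nucleolus, reached 20 CPM in the higher class for 18 of 20 genes. In cycling over double-positive thymocytes 15 were higher and 1 lower, with a median of 1.41, and in mature single-positive thymocytes 9 were higher and 1 lower, with a median of 0.66. Npm1 had 1556 CPM in cycling and 423 CPM in double-positive thymocytes (log2 ratio 1.88), Fbl was at 2.10, Gar1 at 2.53 and Ncl at 1.21. The assembly factor Wdr12 was lower, at -1.63 and -2.12 in the 2 comparisons. In mature single-positive thymocytes Npm1 was at 1.24 and Ncl at -0.049. The median of the assembly factors was thus above that of the ribosomal proteins in cycling thymocytes (1.41 and 0.58) and below it in mature single-positive thymocytes (0.66 and 1.08). Of the growth regulators, 7 of 10 reached that level, with 4 higher and 2 lower in cycling and 1 higher and 3 lower in mature single-positive over double-positive thymocytes. Myc was at 120 CPM in cycling, 105 CPM in mature single-positive and 15.3 CPM in double-positive thymocytes, with log2 ratios of 2.95 and 2.76. Rptor, the mTOR partner raptor, was at -1.10 and Eif4ebp2, an inhibitor of initiation, at -0.77 in cycling over double-positive thymocytes. Mitochondrial ribosomal proteins, which serve a separate ribosome, gave 23 of 78 higher and 1 lower in cycling thymocytes (median 0.33). In mature single-positive thymocytes 5 of 76 were higher and 13 lower (median -0.18). Of all genes, 17.9% were higher and 44.2% lower in cycling thymocytes (median -0.46). In mature single-positive thymocytes 9.37% of all genes were higher and 54.5% lower (median -0.67), so both medians of the mitochondrial list lay above those of all genes.

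Within cycling thymocytes, the share ran along depth and differed with some markers of stage but little with others. Cells with an Il2ra UMI, the interleukin-2 receptor chain of early thymocytes, had 24.2% (193 cells) and cells without one 20.7% (479 cells). Their median depths were 13930 and 7614 UMIs. Cells with a Cd4 UMI, which marks the later stage, had 19.2% (270 cells, median depth 7515 UMIs) against 23.6% without (402 cells). With a Myc UMI the share was 24.8% (220 cells, median depth 14999 UMIs), and without it 19.6% (452 cells, 7258 UMIs). The orders by Il2ra, Cd4, Cd8a and Myc were the same in both pools. With and without Il2ra the shares were 24.9 and 21.96% in ORFTOC and 22.1 and 19.3% in FTOC. With and without Cd4 they were 20.4 and 24.4% in ORFTOC and 17.99 and 21.7% in FTOC. Finding a UMI depends on depth, and the part of depth in these differences was not tested. The share correlated with the score of S phase genes at r = 0.29 and with that of G2 and M phase genes at r = -0.64 over 672 cells. These scores come from the same UMIs as the share.

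**Figure D4:**
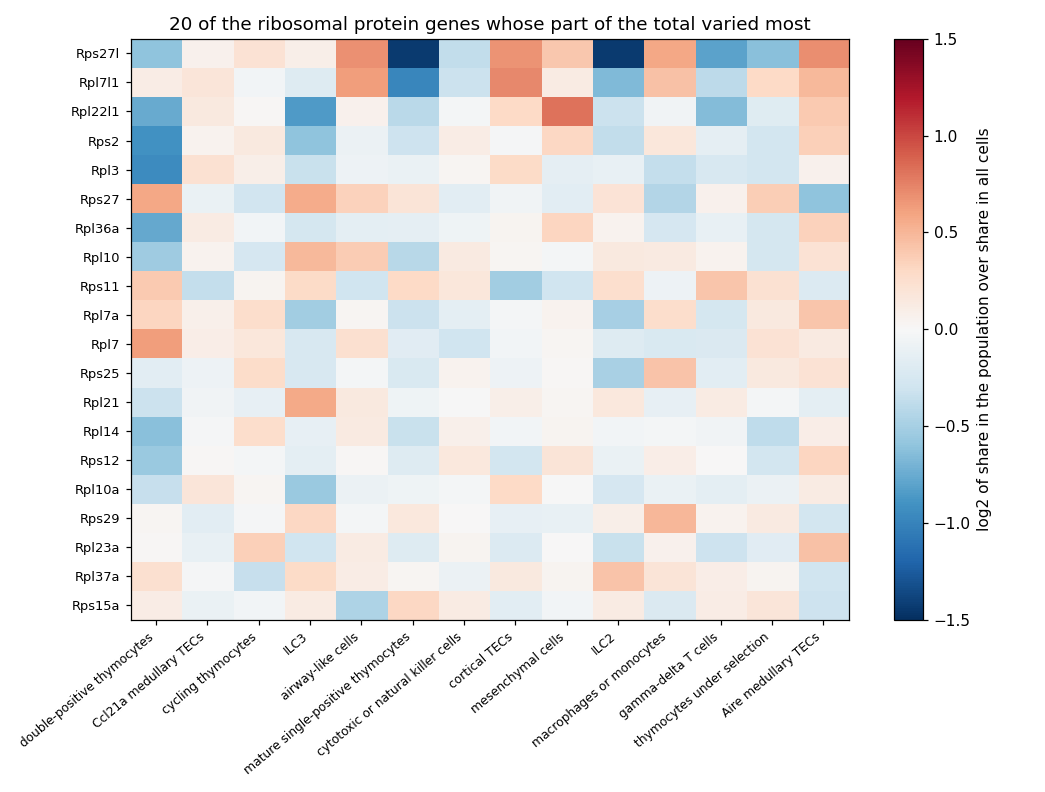
Part of each gene in the summed ribosomal protein UMIs of a population, as log2 over its part in all cells, for 20 of the genes that varied most among named populations. Red is a larger part and blue a smaller one, on a scale from -1.5 to 1.5. Double-positive thymocytes are blue for Rps2, Rpl3 and Rpl36a and red for Rps27 and Rpl7.

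The make-up of the ribosomal protein mRNA was compared apart from its amount, as the part of each gene in the summed UMIs of all members. Between the named populations the highest and lowest part of a gene differed by a median of 0.60 (log2) over the 73 members without the low paralogues. The steadiest was Rpl35 (0.23), followed by Rpl6 (0.29), Rps27a (0.29), Rpl29 (0.30), Rpl9 (0.31) and Rps3 (0.35). The most variable were the paralogues Rps27l (2.14), Rpl7l1 (1.71) and Rpl22l1 (1.67). Among the other members, Rps2 made up 0.997% of the ribosomal protein UMIs in double-positive thymocytes and 2.39% in Aire medullary TECs. Rpl3 made up 0.549% in double-positive thymocytes and 1.29% in cortical TECs.

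Double-positive thymocytes had the lowest part of 14 and the highest part of 13 of the 73 genes. Rpl36a, beside Rps2 and Rpl3, was lowest there, at 0.404% against 0.872% in Aire medullary TECs. Rps27 was highest there, at 1.94% against 0.848%. Both pools gave nearly the same make-up in double-positive thymocytes. In ORFTOC and FTOC, Rps2 was at 0.980 and 1.00%, Rpl3 at 0.513 and 0.564%, Rpl36a at 0.408 and 0.402%, Rps27 at 1.97 and 1.93% and Rpl7 at 1.19 and 1.16%. Deeper double-positive thymocytes of 2000 to 4000 UMIs gave 0.974% for Rps2, 0.565% for Rpl3 and 1.88% for Rps27. Free RNA had another make-up, with 1.74% Rps2, 1.06% Rpl3, 1.18% Rps27 and 0.643% Rpl7. For Rps2, Rpl3 and Rps27, the values of double-positive thymocytes thus lay close in both pools and in their deeper cells, and apart from those of free RNA. What depth and free RNA add to this make-up was not tested. Some members have near-identical copies that were counted under other symbols, such as Rps27rt beside Rps27 (3185 UMIs, 40.6 CPM in double-positive, 41.6 CPM in cycling and 86.6 CPM in mature single-positive thymocytes) and Rpl10-ps3 beside Rpl10 (983 UMIs). Reads that such copies share may have been lost from or split between them, so the levels of these members are uncertain. These copies were named after their values had been seen.

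Of the paralogue pairs, Rpl22 and Rpl22l1, a pair with known roles in T cell development, came closest to even use. Rpl22l1 held 18.7% of the UMIs of the pair in ILC3 and 48.8% in mesenchymal cells. It was at 1144 CPM in mesenchymal cells of ORFTOC and 821 CPM in those of FTOC, and at 294 and 303 CPM in double-positive thymocytes. In cycling thymocytes it was at 838 CPM in ORFTOC and 637 CPM in FTOC, and in mature single-positive thymocytes at 862 and 812 CPM. Double-positive thymocytes were thus the low point of Rpl22l1 in both pools, with log2 ratios of 1.34 and 1.49 for cycling and mature single-positive cells over them. Rps27l, a target of p53, held 4.55% of its pair with Rps27 in ILC2 and 27.0% in Aire medullary TECs. Its level was 496 CPM in cycling and 189 CPM in double-positive thymocytes (log2 ratio 1.39), the opposite direction to Rps27 on this scale, though not with TMM scaling. Rpl7l1 held 2.295% of its pair with Rpl7 in mature single-positive thymocytes and 6.53% in cortical TECs.

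The rare paralogue Rpl39l, known from the testis, was found in 87 cells. ILC3 held 57 of its 185 UMIs, in 33 of 575 cells, at 20.1 CPM (15.2 to 26.1 CPM). Its level in ILC3 was 19.5 CPM in ORFTOC and 22.3 CPM in FTOC. Macrophages or monocytes had 9.15 CPM, which came to 5.08 CPM in ORFTOC and to 26.9 CPM in FTOC from 3 cells. In double-positive thymocytes 3 UMIs were found in 2232 cells (0.743 CPM), and none in cortical TECs, airway-like cells or Aire medullary TECs, where the upper ends of the intervals were 0.806, 0.674 and 1.41 CPM. Thymocytes under selection also had none, but their few UMIs allow up to 9.16 CPM. Even in ILC3, Rpl39l held 0.642% of the UMIs of its pair with Rpl39. Rpl3l stayed at or under 0.124% of its pair with Rpl3, and the 1 UMI of Rpl10l lay in a double-positive thymocyte.

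Genes outside the pattern were ranked by how their log2 CPM followed the log2 share of the ribosomal protein genes over 36 points, the 18 populations in each pool. These points share a lane and their depth. Among 1031 other genes with at least 50 CPM at every point, the 8 closest included Rplp2 (r = 0.95), Rpsa (0.94), Eef1a1 (0.94), Rack1 (0.94), Rplp0 (0.92), Eef1b2 (0.90) and Gm11808 (0.90). Apart from the predicted gene Gm11808, these code for ribosomal proteins, for elongation factors or for Rack1, which sits on the small subunit. The median r of the other genes was 0.020 and 6 were over 0.9. Of the members, 75 could be compared, with a median r of 0.94, and 59 were over 0.9. Each member is part of the share it was compared with. Rps27l was the lowest of them at r = -0.24.

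**Figure D5:**
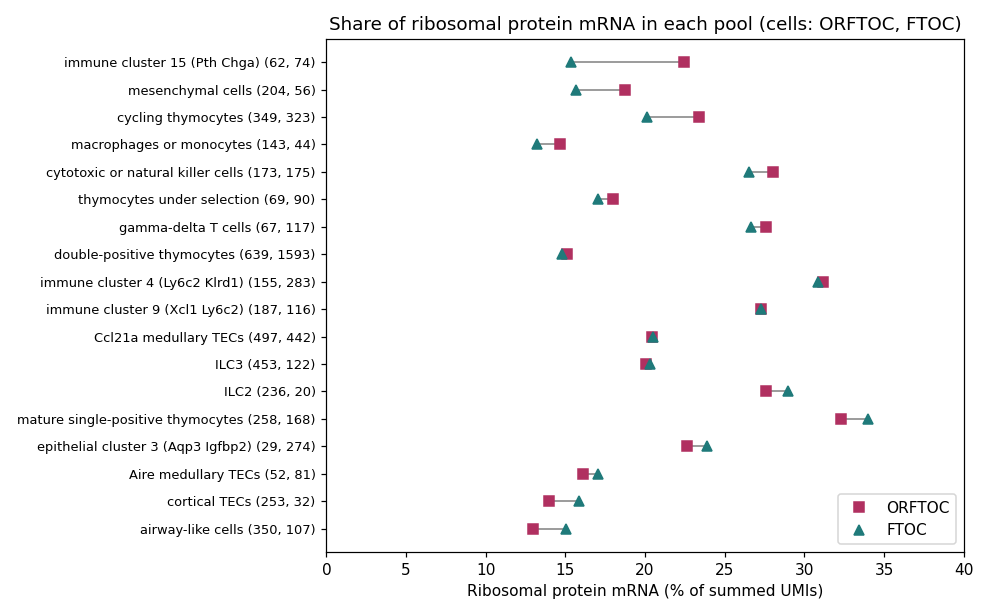
Share of summed UMIs from ribosomal protein genes, in percent, in ORFTOC (squares) and FTOC (triangles) for each population with at least 20 cells in each pool, ordered by the log2 ratio of the pools. The numbers of ORFTOC and FTOC cells are in brackets. Cycling thymocytes lie at 23.4% and 20.1%, and Ccl21a medullary TECs at 20.5% in both.

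Between the pools, the share within a population differed little in most of them. Double-positive thymocytes had 15.1% in ORFTOC and 14.8% in FTOC (log2 ratio 0.028), and Ccl21a medullary TECs 20.5% in both (-0.0048). Mature single-positive thymocytes had 32.3% in ORFTOC and 34.0% in FTOC (-0.074). The order of mature single-positive over cycling over double-positive thymocytes was the same in both pools. Cycling thymocytes had 23.4% in ORFTOC and 20.1% in FTOC (0.22), with median depths of 11534 and 7227 UMIs. At matched depth this distance was smaller in the deeper cells: 16.9 and 15.5% from 4000 to 8000 UMIs, 22.2 and 21.9% from 8000 to 16000, and 25.8% in both pools above. In the few cells of 1000 to 4000 UMIs it was larger, with a log2 ratio of 0.37. Mesenchymal cells had 18.7% in ORFTOC (204 cells) and 15.7% in FTOC (56 cells), a log2 ratio of 0.26. The ORFTOC pool was built with embryonic fibroblasts beside the thymus cells depleted of epithelium, so mesenchymal cells of the pools may differ in source. The cells of either source were not told apart, and the part of source in this difference was not tested.

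Over all epithelial cells the share was 16.6% in ORFTOC and 19.98% in FTOC (log2 ratio -0.27). The epithelial cells of the pools were made up differently. ORFTOC held 350 airway-like cells and 29 cells of an unnamed cluster led by Aqp3 and Igfbp2, whose shares over both pools were 13.4% and 23.7%. FTOC held 107 and 274. Within populations the log2 ratio was -0.18 in cortical TECs, -0.21 in airway-like cells and -0.083 in Aire medullary TECs.

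No member was past 1.5-fold between the pools in any of 5 populations, in either direction, with 76 members tested in each. The background of all genes higher and lower in ORFTOC was 2.05 and 1.96% in double-positive, 1.55 and 5.58% in cycling and 5.98 and 5.12% in mature single-positive thymocytes. In epithelial cells it was 7.03 and 4.18%, and in mesenchymal cells 4.36 and 11%. The median log2 ratio of the members was 0.031 in double-positive thymocytes, 0.21 in cycling thymocytes (all genes -0.093), -0.069 in mature single-positive thymocytes (0.038), -0.26 in epithelial cells (0.0069) and 0.24 in mesenchymal cells (-0.11). In cycling thymocytes the ratios spread from -0.0074 for Rps24 to 0.54 for Rps2 (5167 against 3561 CPM), with Rpl22l1 and Rps6, the target of S6 kinase, at 0.39. In mesenchymal cells Rpl22l1 (0.48) and Rpl41 (0.41) were highest. In epithelial cells Rps26 (-0.39), Rpl36a (-0.38) and Rpl39 (-0.38) were lowest and Rps27l (0.023) highest. In mature single-positive thymocytes Rps27l was highest at 0.46 (260 against 188 CPM), and Rpl17 (-0.20) and Rpl24 (-0.19) were lowest. In double-positive thymocytes Rpl7l1 was lowest (-0.25, 43.9 against 52.4 CPM).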

How the data were processed

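Gene expression, T cell receptor and hashtag libraries came from 1 lane of droplet single-cell sequencing of mRNA 5′ ends. The deposited gene matrix held unfiltered UMI counts for every barcode, which the authors made with Cell Ranger against mm10; the submitters' processing notes name Cell Ranger 6.1.2 and Seurat 4.2.0. Receptor files were not used. Barcodes with at least 600 genes and 0.4 to 10% mitochondrial UMIs were kept (10245 of 10910 with at least 600 genes). HTODemux in Seurat 5.3.0 (positive quantile 0.99) marked 590 doublets between pools and 672 negatives, and 591 cells with the most such doublets among their 50 nearest neighbours were removed. Counts were normalised with sctransform 0.4.2 and clustered on 18 principal components without the member genes (resolution 0.4 for all and for epithelial cells, 1 for immune cells). A cluster was named by the class with the highest mean fold of its markers, with at least 3 markers detected. Its 10 leading genes also had to hold a marker of that class, and more of them than of any other class. Clusters that failed these rules, or whose best class led the next by 0.25 log2 or less, stayed unnamed.

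UMIs were summed over cells and scaled to CPM. Shares and CPM values carry Clopper-Pearson intervals and ratios exact binomial intervals, at the 95% level, for counting error only. Ratios used a pseudocount of 0.5 UMIs. No test was made, since each pool was 1 sample. Named genes were the 5 members with most and with fewest UMIs, the 6 that varied most and least in make-up, the paralogues, the X-linked members, the 3 highest and lowest in each comparison, the 8 most alike other genes and genes of the lists. Some genes that this rule picks are not reported here. Leading genes of clusters were named after they had been seen. The members and lists were chosen with earlier results of these data known. On counts simulated for cycling over double-positive thymocytes (6210 genes tested), the 1.5-fold rule found 100% of the genes made higher and 97% of those made lower, and called 0.15% of unchanged genes. For ORFTOC over FTOC in double-positive thymocytes (6599 genes) it found 100% and 99%, and called 3.19% of unchanged genes. TMM factors came from edgeR 4.0.16, used for scaling only. Further tools were R 4.3.3, scipy 1.17.1 and numpy 2.4.6 under Python 3.11.15, with pandas 2.3.3, and figures were drawn with matplotlib 3.10.9. RefSeq sequences were on GRCm38.p6; where a gene had several start regions, the first listed is printed.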

Additional observations from a re-analysis of the deposited data

Results flagged for a closer look

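The share of ribosomal protein mRNA differed between the pools in opposite directions in different populations. This difference was not tested, since each pool was 1 sample. The log2 ratio of ORFTOC over FTOC was above 0 in mesenchymal cells (0.26), cycling thymocytes (0.22), macrophages or monocytes (0.14), cytotoxic or natural killer cells (0.080), thymocytes under selection (0.074), gamma-delta T cells (0.053) and double-positive thymocytes (0.028). It was below 0 in airway-like cells (-0.21), cortical TECs (-0.18), Aire medullary TECs (-0.083), mature single-positive thymocytes (-0.074), ILC2 (-0.073), ILC3 (-0.018) and Ccl21a medullary TECs (-0.0048). The smallest groups behind these values were 20 ILC2 and 32 cortical TECs of FTOC.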

How the results depend on the processing

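No paired analysis was possible because each pool was 1 sample with no replicate numbers. Every share was recomputed under 13 alternatives, of which 12 were planned. In the order double-positive, cycling and mature single-positive thymocytes, epithelial and mesenchymal cells, the main shares were 14.9, 22.2, 32.9, 17.98 and 18.2%. With intervals this narrow, 43 of the recomputed shares lay outside them, and no pool difference changed sign. Double-positive thymocytes moved to 14.8% with the members among the clustering genes, with doublets kept and with pools set by the ratio of hashtags, to 15.0% with 30 principal components, to 16.1% with at least 1000 genes per cell, to 15.1% with 5% free RNA subtracted, to 13.9% as the mean over cells, to 14.7% in cells of 1000 to 4000 UMIs, to 15.4% without mitochondrial UMIs, to 16.5% with the 8 ribosomal proteins outside the pattern and to 15.1% without the low-share cluster. In these orders, cycling thymocytes moved to 22.1% (hashtag ratio), 23.1% (30 components), 24.2% (1000 genes), 22.8% (free RNA), 20.1% (mean over cells), 17.8% (1000 to 4000 UMIs), 22.6% (no mitochondrial UMIs), 24.7% (8 more genes) and 23.3% (log-normalised clustering). Mature single-positive thymocytes moved to 31.8, 31.3, 32.6, 31.9, 33.0, 34.1, 32.2, 33.7, 36.5 and 33.6% (clustering with members, doublets kept, hashtag ratio, 30 components, 1000 genes, free RNA, 1000 to 4000 UMIs, no mitochondrial UMIs, 8 more genes, log-normalised clustering). Epithelial cells moved to 17.2% (hashtag ratio), 18.4% (free RNA, and no mitochondrial UMIs), 18.003% (mean over cells), 17.8% (1000 to 4000 UMIs) and 19.7% (8 more genes), and mesenchymal cells to 19.0% (doublets kept), 19.4% (hashtag ratio), 18.6% (free RNA), 17.7% (mean over cells), 18.5% (no mitochondrial UMIs), 20.2% (8 more genes) and 17.98% (cells with markers of another compartment left out). The cause was not tested.

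The log2 ratio of the pools moved, in double-positive thymocytes, from 0.028 to 0.012 (1000 genes) and 0.0099 (mean over cells). In cycling thymocytes it moved from 0.22 to 0.13 (1000 genes), 0.23 (mean over cells), 0.16 (log-normalised clustering), 0.17 (30 components), 0.21 (hashtag ratio, and no mitochondrial UMIs), 0.22 (free RNA) and 0.37 (1000 to 4000 UMIs). In mature single-positive thymocytes it moved from -0.074 to -0.080 (1000 genes), -0.047 (log-normalised clustering), -0.10 (1000 to 4000 UMIs) and -0.085 (doublets kept). In epithelial cells it moved from -0.27 to -0.29 (mean over cells), -0.17 (hashtag ratio), -0.28 (free RNA, and 1000 to 4000 UMIs), -0.24 (doublets kept) and -0.32 (other markers left out), and in mesenchymal cells from 0.26 to 0.28 (mean over cells), 0.38 (hashtag ratio), 0.27 (free RNA, and 8 more genes) and 0.36 (doublets kept).

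Members past 1.5-fold in cycling over double-positive thymocytes went from 37 to 74 with TMM scaling and to 3 in cells of 2000 to 4000 UMIs, an alternative added after seeing the data, as was leaving out the low-share cluster. Between the pools the count went from 0 to 1 in cycling and in mesenchymal cells with TMM. Of all genes, 3.56% were then higher and 2.80% lower in cycling thymocytes, and 6.87 and 6.93% in mesenchymal cells. Scaled to UMIs of other genes, it went to 1 in cycling thymocytes (2.48 and 4.74% of all genes). With no limit of 20 CPM it went to 2, 2, 1 and 2 in double-positive, cycling, mature single-positive and epithelial cells. In that order 14.6, 13.8, 20.4 and 17.3% of all genes were then higher, and 12.1, 23.0, 19.3 and 21.3% lower. The count for mature single-positive over double-positive thymocytes stayed within 1.5 times of 71 under all 6 alternatives. Depth limits what can be said of Rpl3l, Rpl10l and Rpl39l.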

Other observations

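Populations with fewer than 50 cells were left out of the comparisons. Their shares of ribosomal protein mRNA were 19.8% in 29 dendritic cells, 13.0% in 26 tuft-like epithelial cells and 14.0% in 44 cells of a cluster led by Iapp and Ascl3. An immune cluster of 136 cells led by the parathyroid hormone gene Pth and by Chga had 17.98% over both pools, and the pools lay apart, at 22.4% in ORFTOC against 15.3% in FTOC (log2 ratio 0.55).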
